A study of Mus musculus with 18 samples.

Results

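Small nucleolar RNA (snoRNA) genes were examined in end-stage splenic tumours of 18 mice. The genes were chosen by symbol alone: every probe set whose single gene symbol in the platform annotation began with Snord or Snora followed by a number was taken, and 1 probe set was kept per gene, that with the highest mean over the 18 arrays. This gave 51 snoRNA genes of 19938 genes measured, 31 of them box C/D (Snord) and 20 box H/ACA (Snora). They lay on 15 chromosomes. The annotated length was 45 to 148 bases for box C/D genes (median 68) and 61 to 205 bases for box H/ACA genes (median 125). A further 41 snoRNA probe sets carried several symbols, 24 of them for the Snord116 cluster, and were not used here.

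Every mouse, in both groups, was Eμ-Myc transgenic on a C57BL/6 background: Myc is placed under the enhancer of the immunoglobulin heavy chain gene, which is active in B lineage cells. The groups differed in Prdm11, which encodes a PR domain protein, with 9 tumours of the Prdm11 wild-type (WT) genotype and 9 of the knockout (KO) genotype, each tumour from a separate mouse. The tumours were frozen and homogenised whole, total RNA was purified on Qiagen columns with a DNase step, and 1 Affymetrix array was run per tumour. The sources used here give neither the age of the mice nor the kind of Prdm11 allele. Levels below are log2 of the deposited array intensity, and differences are KO minus WT.

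snoRNAs are short non-coding RNAs of the nucleolus, most of which are cut from the introns of host genes after splicing. Box C/D snoRNAs pair with ribosomal RNA and direct the methyltransferase fibrillarin to methylate the sugar of the paired nucleotide, and box H/ACA snoRNAs direct dyskerin to convert uridine to pseudouridine. A few of either class, among them U8, U14, U17 and U22, are needed for cutting the ribosomal RNA precursor. Many hosts are genes of ribosomal proteins and translation factors, whose transcripts often start with a run of pyrimidines, and Myc is known for driving ribosome production.

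Of the 51 snoRNA genes, 50 lay inside another gene of the GRCm38.p6 table and 1 (Snord118) inside none. The smallest gene around each was taken as its host, by position only, since the table held no strand. The 50 had 40 distinct hosts, 37 of the 50 in protein-coding genes and 13 in long non-coding RNA genes. Ribosomal protein genes held 21 of them, 13 box C/D and 8 box H/ACA. The start sites of 8 hosts are shown because each carried 2 of the measured snoRNA genes, whose levels are set side by side further on, and those of Rpl10 and Eef1b2 because their own level is later compared with that of their snoRNA. Each is RefSeq sequence of GRCm38.p6, read 5′ to 3′ on the gene's strand, with 20 bases before and 10 bases from the annotated start. Capitals mark CTTT within the 14 bases that begin 5 bases before the start.
Snhg3 (chr4:132353677-132353706, minus strand): aggcatagtcgaccacgcctgacttccggg
Rps3 (chr7:99483700-99483729, minus strand): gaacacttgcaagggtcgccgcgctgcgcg
Rpl13a (chr7:45128736-45128765, minus strand): gataagaaaccctgcgacaagacctcctcc
Rps3a1 (chr3:86142659-86142688, minus strand): gattcttaaagccggaagggcgaaagagca
2410006H16Rik (chr11:62602857-62602886, plus strand): ggcgctcacgcgccgtCTTTctctgcggcc
Rack1 (chr11:48800340-48800369, plus strand): tccggcggaggccgctCTTTCTTTttctcc
Ncl (chr1:86359446-86359475, minus strand): cggttggctccggggacggacgcgagctct
Snhg12 (chr4:132308658-132308687, plus strand): gtgcaggccgttctcagtcCTTTctcgctt
Rpl10 (chrX:74270796-74270825, plus strand): ctatggttgttacagtggaagataggccgc
Eef1b2 (chr1:63176811-63176840, plus strand): cgacttggacctgcagttccgccggaagta
Of these hosts, 2410006H16Rik and Snhg12 (both non-coding) and Rack1 (a ribosomal scaffold protein) held CTTT at the start. Start sites were given for 30 of the 40 hosts. CTTT was present at 8 of the 30 (26.7%), against 6.07% of 27025 genes, and the reverse complement AAAG at 3.33% of hosts against 5.63% of all genes. No test was made of these shares, and the letters depend on where the annotation places the start.

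The tumours differed widely in their snoRNA levels. The SD over the 18 tumours had a median of 0.61 log2 units over the 31 box C/D genes and 0.62 over the 20 box H/ACA genes, against 0.26 over all genes. An SD above 0.50, which 10% of all genes exceed by construction, was found for 39 of the 51, 23 box C/D and 16 box H/ACA. Snord8 alone (SD 0.23) was below the median gene. Across the 51 genes the SD had little relation to annotated length (r = 0.16 over genes, which are not independent).

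**Figure D1:**
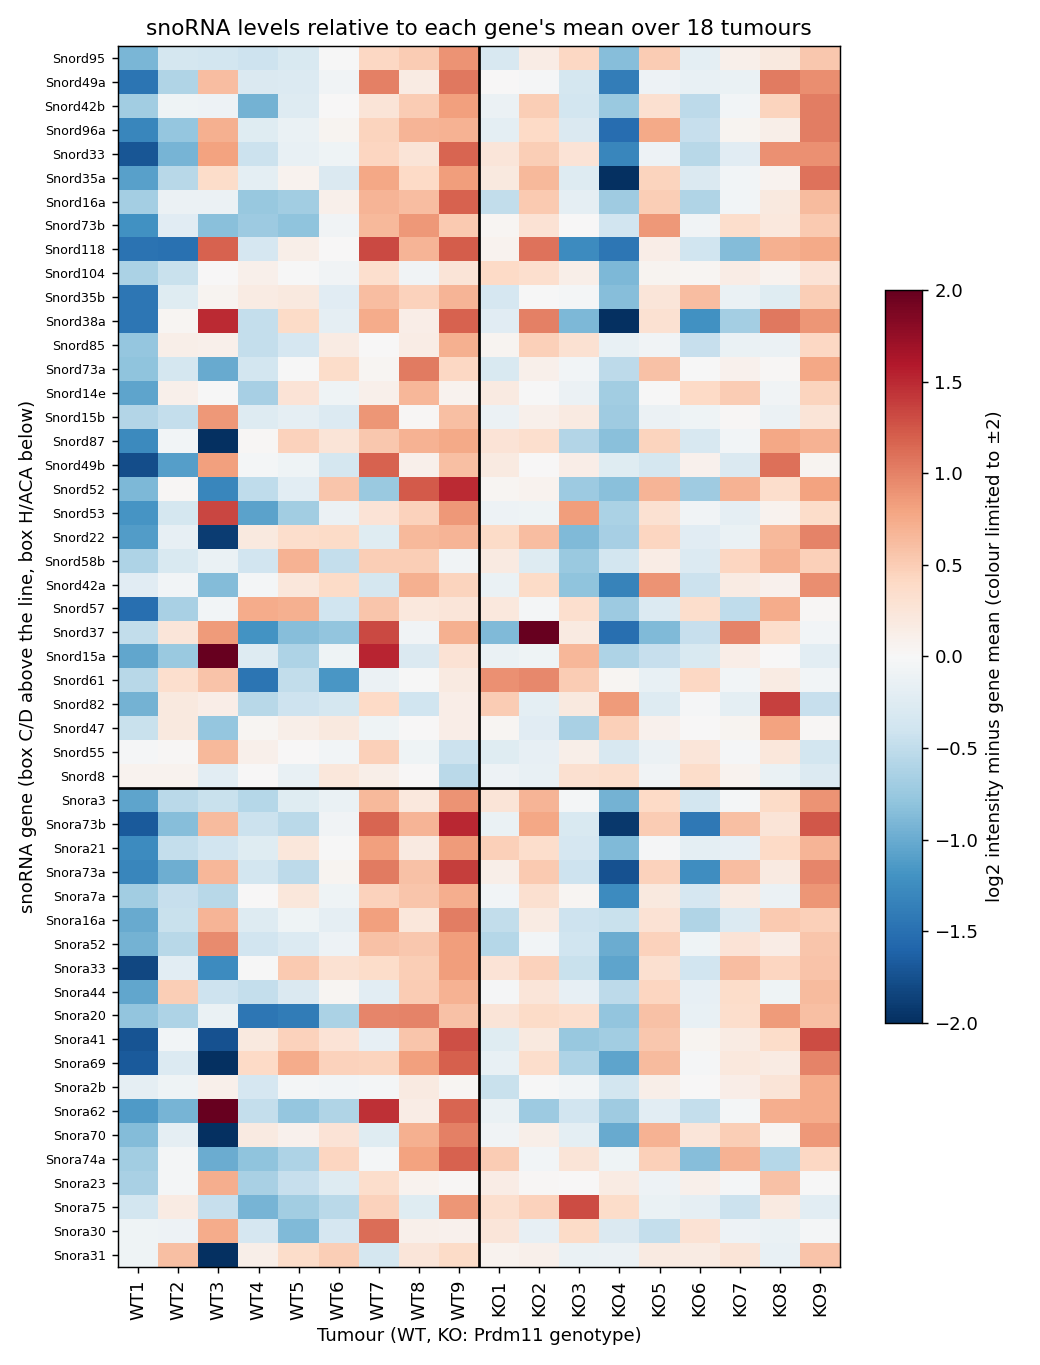
Level of each of the 51 snoRNA genes (rows, box C/D above the horizontal line and box H/ACA below it) in each of the 18 tumours (columns, WT left and KO right of the vertical line). Colour is log2 intensity minus the gene's mean over the 18 tumours, limited to 2 units either way. The columns of WT1 and KO4 are mostly blue and that of WT9 mostly red, while WT3 holds rows far above and rows far below their means.

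Among box C/D genes the largest SD was that of Snord37 (1.02), which lies in the elongation factor gene Eef2. Its level ran from 2.83 to 5.34 (median 3.95) in WT and from 2.52 to 6.55 (median 3.96) in KO tumours. This probe set was dim, with a mean at percentile 15.5 of all genes. KO2 was the highest tumour and KO4 the lowest, and the genotypes overlapped throughout. Snord38a had an SD of 0.998, with 6.04 to 8.99 (median 7.62) in WT and 5.39 to 8.55 (median 7.27) in KO tumours. Here WT3 was highest and KO4 again lowest. Snord118, the U8 snoRNA that takes part in processing of the large subunit rRNA precursor and has its own gene, had an SD of 0.98. It ran from 3.73 to 6.54 (median 5.33) in WT and from 3.78 to 6.31 (median 5.30) in KO tumours. WT1, WT2, KO3 and KO4 were all below 4, and WT3, WT7, WT9 and KO2 above 6.

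Snord52 (SD 0.80, in the transcript 1110038B12Rik), Snord15a (0.79, in Rps3) and Snord33 (0.78, in Rpl13a) followed. Snord33 ran from 4.85 to 7.72 (median 6.46) in WT and from 5.25 to 7.48 (median 6.79) in KO tumours, lowest in WT1 and highest in WT9. Snord15a ran from 4.28 to 7.54 (median 5.06) in WT and from 4.71 to 5.99 (median 5.18) in KO tumours. Its highest value was that of WT3, and its SD was 0.59 without that tumour. Snord52 ran from 5.36 to 8.16 (median 6.44) in WT and from 5.83 to 7.46 (median 6.73) in KO tumours. In contrast to Snord15a, WT3 was its lowest tumour.

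Other box C/D snoRNAs of precursor cleavage varied less or in other tumours. Snord14e, a U14 copy in the chaperone gene Hspa8, had an SD of 0.44, with 9.45 to 11.16 (median 10.56) in WT and 9.81 to 11.002 (median 10.49) in KO tumours. WT1 was its lowest tumour. Snord22, U22 in the non-coding host Snhg1, had an SD of 0.75, with 7.87 to 10.45 (median 9.98) in WT and 8.90 to 10.76 (median 10.16) in KO tumours. Its lowest tumour was WT3, and its SD was 0.60 without that tumour.

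Among box H/ACA genes the largest SD was that of Snora73b (1.01), 1 of the 2 U17 genes of the non-coding host Snhg3, which act in small subunit rRNA processing. It ran from 7.09 to 10.29 (median 8.71) in WT and from 6.84 to 10.01 (median 9.03) in KO tumours. Snora73a, the other U17 gene, ran from 7.25 to 9.95 (median 8.62) in WT and from 6.81 to 9.53 (median 8.73) in KO tumours (SD 0.89). For both, WT9 was highest and KO4 lowest, and the genotypes overlapped. Snora69 (SD 0.97), in Rpl39, ran from 5.05 to 8.88 (median 8.12) in WT and from 6.61 to 8.67 (median 7.83) in KO tumours, with WT3 lowest. Snora62 (SD 0.94), in the ribosomal protein gene Rpsa, ran from 5.54 to 9.04 (median 6.19) in WT and from 5.95 to 7.41 (median 6.46) in KO tumours, with WT3 highest. Without WT3 the SD was 0.74 for Snora69 and 0.75 for Snora62.

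The 2 genes of each class that varied least were Snord8 (SD 0.23) and Snord55 (0.28) of box C/D and Snora2b (0.26) and Snora23 (0.36) of box H/ACA. Snord8 ran from 5.56 to 6.33 (median 6.11) in WT and from 5.83 to 6.47 (median 6.03) in KO tumours. WT9 was its lowest tumour and KO6 its highest. Snord55 ran from 6.36 to 7.44 (median 6.80) in WT and from 6.42 to 7.03 (median 6.67) in KO tumours. Snora23, in the importin gene Ipo7, ran from 8.49 to 9.86 (median 9.10) in WT and from 9.04 to 9.73 (median 9.17) in KO tumours. Snora2b ran from 4.01 to 4.53 (median 4.30) in WT and from 3.90 to 5.08 (median 4.35) in KO tumours.

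Most snoRNA genes of both classes were low or high in the same tumours. With each gene set relative to its own mean, WT1 averaged -0.95 over box C/D and -0.95 over box H/ACA genes, and 50 of the 51 genes were below their mean there. KO4 averaged -0.74 and -0.72, with 45 of 51 below. At the other end, WT9 averaged 0.57 and 0.83, with 48 of 51 above their mean, and KO9 averaged 0.45 and 0.64, with 42 above. WT7 (0.45 and 0.48) and WT8 (0.35 and 0.42) were also high in both classes. WT1 was the lowest tumour for 19 genes and KO4 for 11, and WT9 was the highest for 17 and KO9 for 8. The lowest and highest tumour thus both belonged to the WT group, and each genotype held tumours at either end.

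The mean over box C/D genes spanned 1.52 log2 units over the tumours, a 2.87-fold range, and that over box H/ACA genes 1.78 units, a 3.45-fold range. The SD of the tumour mean was 0.41 for box C/D and 0.46 for box H/ACA genes, and 0.34 and 0.41 without WT1. The means of the 2 classes ranked the tumours alike (r = 0.94, rho = 0.91, n = 18 tumours), with r = 0.94 within WT and 0.94 within KO tumours and 0.89 without WT1 and KO4. The points share their arrays and tissue samples, so this is a description. The tumour in which the classes differed most was WT3, with 0.10 for box C/D and -0.35 for box H/ACA genes. WT3 was the lowest tumour for 10 snoRNA genes and the highest for 7.

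Pairs of snoRNA genes varied together about as much across the classes as within them. The median r over 18 tumours was 0.44 for the 465 box C/D pairs, 0.50 for the 190 box H/ACA pairs and 0.48 for the 620 pairs of 1 gene from each class. Of all 1275 pairs, 85.02% had a positive r (median 0.47). The median was 0.55 without WT3 and 0.30 without WT1 and KO4. It was 0.53 within WT and 0.47 within KO tumours. The lowest r with the mean of the other snoRNA genes were those of Snord8 (-0.59) and Snord55 (-0.12), the only 2 below 0.

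snoRNA genes of a shared host had a median r of 0.81 over 10 pairs, all positive. The highest were Snora73a and Snora73b of Snhg3 (r = 0.99), Snord15a and Snord15b of Rps3 (0.87), Snord33 and Snord35a of Rpl13a (0.84) and Snord73a and Snord73b of Rps3a1 (0.83). Snord49a and Snord49b of 2410006H16Rik, and Snord95 and Snord96a of Rack1, each had 0.81. Snord42a and Snord42b of Rpl23a had 0.68. Snora75 and Snord82, a box H/ACA and a box C/D gene of the nucleolin gene Ncl, had 0.53, and Snora16a and Snora44 of Snhg12 had 0.47. Copies that share a name and differ by a last letter, such as Snora73a and Snora73b, can be alike in sequence, and how far their probe sets share signal was not tested.

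Other short or structured RNAs were set beside the snoRNA genes, since the labels record no scan day or RNA quality. Columns of the kind used for these tumours are known to recover short RNA less well than long RNA, and the recovery per tumour was not given in the sources used here. Over the 18 tumours the box C/D mean had r = 0.71 with the mean of 3 small Cajal body RNA genes, 0.69 with 5 small nuclear and U3 RNA genes and 0.65 with 5 other structured RNAs (Rmrp, Rn7sk, Rpph1, Terc and Vaultrc5). The box H/ACA mean had 0.63, 0.53 and 0.44 with the same lists. Without WT1 and KO4 the box C/D values were 0.54, 0.66 and 0.59. Among the small nuclear and U3 RNA genes, Rnu5g and Rnu6 were dim, with means at percentiles 4.11 and 0.105 of all genes. By gene, r with the box C/D mean ran from 0.20 for Rnu5g to 0.77 for Rnu12 in that list. These lists are not wholly apart from the snoRNA classes. Rnu3a (U3, r = 0.67) is itself a box C/D RNA without a Snord symbol. Terc (0.41) is a box H/ACA RNA, and small Cajal body RNAs carry boxes of either class. Among the other structured RNAs, Rpph1 had 0.68, Rmrp 0.62, Rn7sk 0.56 and Vaultrc5 0.54. The 300 microRNA genes were mostly dim too, with a mean level of 4.11 beside 5.39 for the median gene. Their tumour mean had an SD of only 0.12. With these microRNA genes r was -0.16 for box C/D and -0.34 for box H/ACA genes. With 26 replication-dependent histone genes r was 0.30 and 0.24, and with 2 Y RNA genes 0.44 and 0.42. With a 5S ribosomal RNA gene r was 0.17 and -0.08. Some of these values differed by genotype: for the box C/D mean, the microRNA genes had r = 0.20 within WT and -0.69 within KO tumours, the Y RNA genes 0.77 and -0.14, the histone genes -0.04 and 0.71 and the small Cajal body RNA genes 0.90 and 0.39. The mean of the other structured RNAs was highest in WT3 (1.21 above the gene means), where the box H/ACA mean was -0.35. The part of RNA recovery or array preparation in the snoRNA spread was not tested.

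**Figure D2:**
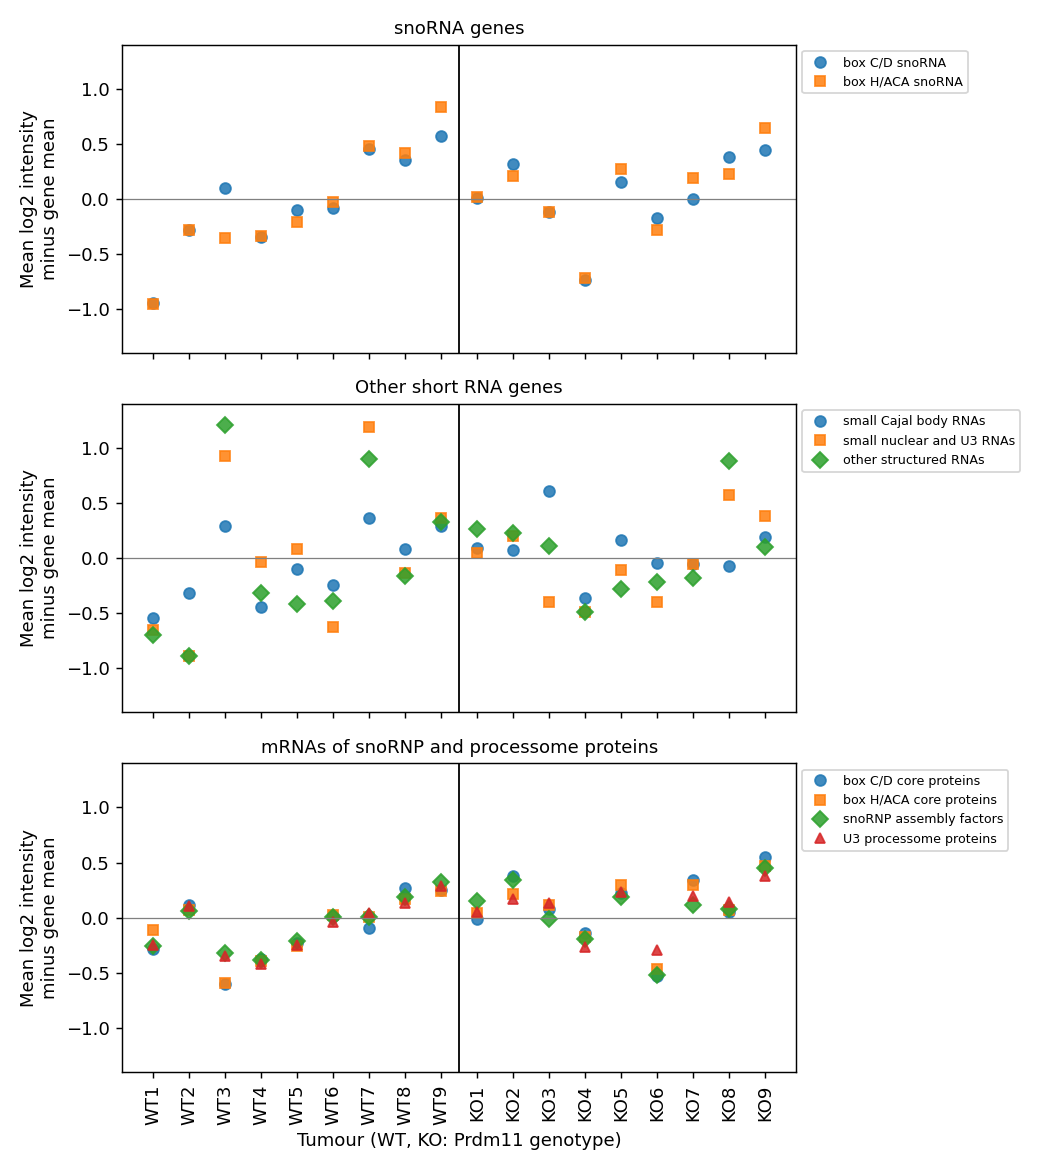
Mean over the genes of each list in each of the 18 tumours, as log2 intensity minus the gene's mean over all tumours; 1 point per list and tumour, WT left and KO right of the line, with no error bars. In the top panel both snoRNA classes are lowest in WT1 and highest in WT9. The middle panel has small Cajal body, small nuclear and other structured RNAs, and the bottom panel the mRNAs of snoRNP and processome proteins, which span less.

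The median level of the arrays moved with the snoRNA means too, and other array measures did so less. The median log2 level of the array, 5.14 to 5.38, had r = -0.56 (rho -0.73) with the box C/D mean and r = -0.74 (rho -0.86) with the box H/ACA mean. Within WT tumours r was -0.34 and -0.62, and within KO tumours -0.86 and -0.93. After the arrays were centred on their medians, the SD of the tumour mean was 0.44 for box C/D and 0.50 for box H/ACA genes, and after quantile normalization 0.40 and 0.43. WT3 stood furthest from the other arrays, with a median correlation of 0.924 to them, against at least 0.957 for each of the others. In WT3 the median absolute deviation of probe sets from their medians over the 18 arrays was 0.40. KO4 followed with 0.26, and WT1 had 0.18. This deviation had r = -0.04 with the box C/D mean and -0.24 with the box H/ACA mean (0.15 and -0.13 within WT, -0.47 and -0.50 within KO tumours). The median correlation of an array to the others had r = 0.15 and 0.39 with the same means (0.02 and 0.31 within WT, 0.55 and 0.67 within KO tumours).

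Cell type markers were measured in the same tumours. The 9 measured B lineage markers, among them Cd79a, Pax5 and Ebf1, had a mean level of 6.36 to 7.56 in WT and 6.35 to 7.70 in KO tumours, and r = -0.16 with the box C/D mean (-0.50 without WT1 and KO4). The mean of 8 erythroid markers ran from 7.26 to 9.14 in WT and from 6.40 to 7.88 in KO tumours, was highest in WT1 and had r = -0.48 with the box C/D mean (-0.90 within WT, 0.13 within KO tumours). The 8 stromal and endothelial markers had r = -0.49 with it (-0.52 within each genotype) and the 10 macrophage markers -0.28 (-0.49 within WT, 0.16 within KO tumours). The 9 neutrophil markers had 0.22 (0.0005 within WT, 0.74 within KO tumours) and the 8 T cell markers -0.004 (-0.33 without WT1 and KO4). Array intensity has no true zero, and none of the values was 0. In whole tumours, fewer cells of a type and less RNA per cell cannot be told apart, and the part of these cell types in the snoRNA spread was not tested.

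The mRNAs of the proteins that snoRNAs work with varied less than the snoRNAs, and partly in step with them. The 4 box C/D core proteins had r = 0.51 with the box C/D mean, and the 4 box H/ACA core proteins r = 0.67 with the box H/ACA mean. The SD of their tumour means was 0.32 and 0.29. Nop10, a small dyskerin partner, had r = 0.86 with the box C/D and 0.88 with the box H/ACA mean, Nop56, a scaffold of box C/D particles, 0.69 and 0.80, and Nhp2 0.63 and 0.77. Nop58, the other scaffold, had 0.53 and 0.62. The catalytic subunits had lower values: Fbl (fibrillarin) had -0.06 with the box C/D mean and Dkc1 (dyskerin) 0.36 with the box H/ACA mean, and Gar1 had 0.03 with the latter. The 14 assembly factors had r = 0.65 and 0.77 with the box C/D and box H/ACA means, and the 28 proteins of the U3 processome, the particle that cuts the small subunit rRNA precursor, 0.66 and 0.80. Myc itself had 0.07 and 0.11.

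Host genes and their snoRNAs were compared where the host had its own probe set, which gave 27 pairs over 23 hosts. Of these, 21 had a positive r over the 18 tumours, with a median of 0.26. By a two-sided permutation test adjusted over the 27 pairs, 4 passed (3 positive, 1 negative), and 7 had an unadjusted p below 0.05. The rank correlation passed for 3 of the 27. The median r of these snoRNA genes with the mean of the other snoRNA genes was 0.61. This r is with a mean over many genes and that with a host is with 1 probe set, so they are not like measures. Hosts also differed in how far they varied, from an SD of 0.06 for Gas5 to 0.59 for Srcap. The array does not separate a mature snoRNA from host precursor that still holds it.

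Snora70 and its host Rpl10, a protein of the large ribosomal subunit, had the highest r. Rpl10 ran from 11.19 in WT3 to 12.63 in KO7, and Snora70 from 4.84 in WT3 to 8.01 in WT9. The 2 were correlated with r = 0.89 (rho 0.85, permutation adjusted p = 0.00054 for each, n = 18), with 0.90 within WT and 0.85 within KO tumours. Without WT3 and KO4, the tumours farthest from the median of Rpl10, r was 0.64.

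Snora41 lies in Eef1b2, which encodes a subunit of the elongation factor that recharges eEF1A. Eef1b2 ran from 11.81 in WT3 to 12.55 in KO7, and Snora41 from 5.07 in WT3 to 8.13 in KO9. The correlation was 0.81 (permutation adjusted p = 0.00108, n = 18) and rho was 0.65 (adjusted p = 0.0391). It was 0.85 within WT, 0.78 within KO tumours and 0.73 without WT3 and KO4.

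**Figure D3:**
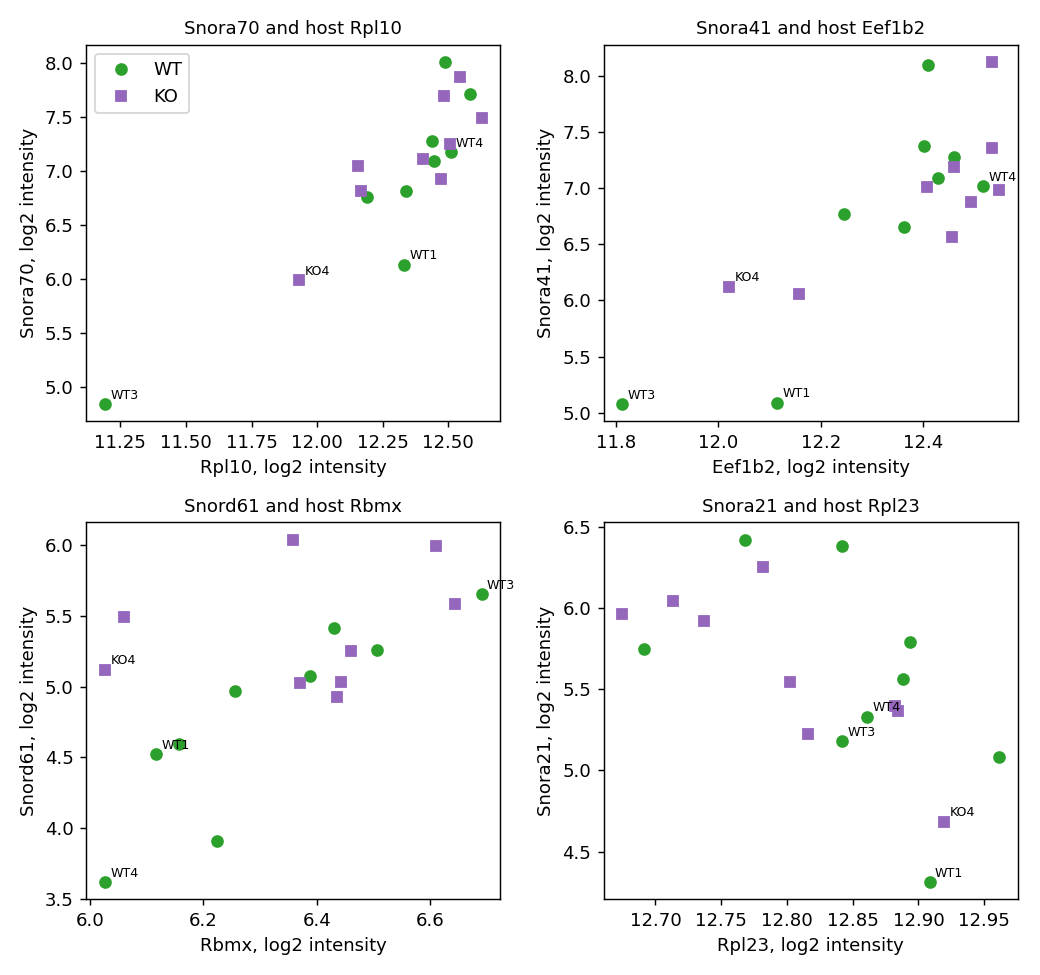
Level of a snoRNA gene (vertical) against that of its host gene (horizontal), both in log2 intensity, with 1 point per tumour (circles WT, squares KO) for the 4 pairs past the adjusted threshold. Snora70 and Snora41 are lowest in WT3, where their hosts are lowest too, and Snora21 runs against Rpl23 over a narrow range of the host.

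The other pairs past the threshold were less firm. Snord61 and Rbmx, an RNA-binding protein gene, had r = 0.61 (permutation adjusted p = 0.0437; rho 0.57, adjusted p = 0.0781), with 0.87 within WT and 0.25 within KO tumours. Without KO4 and WT4 the Snord61 value was 0.56, and after quantile normalization it was 0.51 (permutation adjusted p = 0.108). Snora21 and Rpl23 had r = -0.63 (permutation adjusted p = 0.0437; rho -0.66, adjusted p = 0.0391) and -0.67 without WT8 and KO8. Rpl23 spanned only 12.67 to 12.96. With the probe set of largest variance the Snora21 pair had r = 0.24, so its sign rests on the probe set. Snora52 and Rplp2 had r = 0.55 (permutation adjusted p = 0.083), which was 0.21 without WT1 and KO4, and Snord73b and Rps3a1 had r = -0.49 (permutation adjusted p = 0.144).

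Relative to the mean of the other snoRNA genes, an alternative added after the data were seen, 4 pairs passed, and 2 of them were others. Snora70 had r = 0.94 and Snora41 0.77, and the pairs of Ncl with Snora75 (0.76) and Snord82 (0.62) passed as well. Snord61 (0.27, permutation adjusted p = 0.456) and Snora21 (-0.30, permutation adjusted p = 0.456) did not, and Snora52 had 0.06.

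The count of pairs past the threshold depended on single tumours. Without WT3 it was 8, and without WT2, WT4, WT9, KO1, KO7, KO8 or KO9 it was 2 (Snora70 and Snora41). Of the 4 pairs, those of Snora70 and Snora41 passed in each of these fits.

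The comparison of KO with WT tumours asked whether loss of Prdm11 went with other snoRNA levels. The Prdm11 probe set had a mean of 5.33 ± 0.26 in WT and 5.21 ± 0.23 in KO tumours (SD, n = 9 each), and it does not check the labels, since the sources used here do not give its place relative to the deleted part. None of the 51 snoRNA genes passed an adjusted p of 0.05 in limma, against 0.00502% of all genes, and their adjusted p ran from 0.699 to 0.994. At an unadjusted p below 0.05, 1 was higher and 0 were lower in KO tumours, against 2.83% and 3.87% of all genes (6.7% in either direction). The difference was positive for 20 of 31 box C/D and 13 of 20 box H/ACA genes, with medians of 0.08 and 0.13, beside a median of -0.03 and 40.8% positive over all genes. Without WT1 the medians were -0.03 for box C/D and -0.02 for box H/ACA genes, so the sign rests on that tumour.

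The tumour means overlapped between the genotypes. The box C/D mean ran from -0.95 to 0.57 (median -0.08) in WT and from -0.74 to 0.45 (median 0.01) in KO tumours, a difference of 0.06 (SE 0.20). The box H/ACA mean ran from -0.95 to 0.83 (median -0.21) in WT and from -0.72 to 0.64 (median 0.19) in KO tumours, a difference of 0.10 (SE 0.22). Either difference was smaller than its error and than the spread between tumours of a genotype. Without WT1 they were -0.05 and -0.02. In the same comparison the erythroid marker mean, highest in WT1, had a difference of -0.59, with 8 of 8 markers negative, 5 with an unadjusted p below 0.05 and 0 past the adjusted threshold of limma. The B lineage marker mean had a difference of 0.30, with 7 of 9 markers positive. Of the 9, 4 had an unadjusted p below 0.05 and 0 passed the adjusted threshold of limma. Over all genes, 40.8% of differences were positive. At an unadjusted limma p below 0.05, 2.83% of all genes were higher and 3.87% lower in KO tumours.

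**Figure D4:**
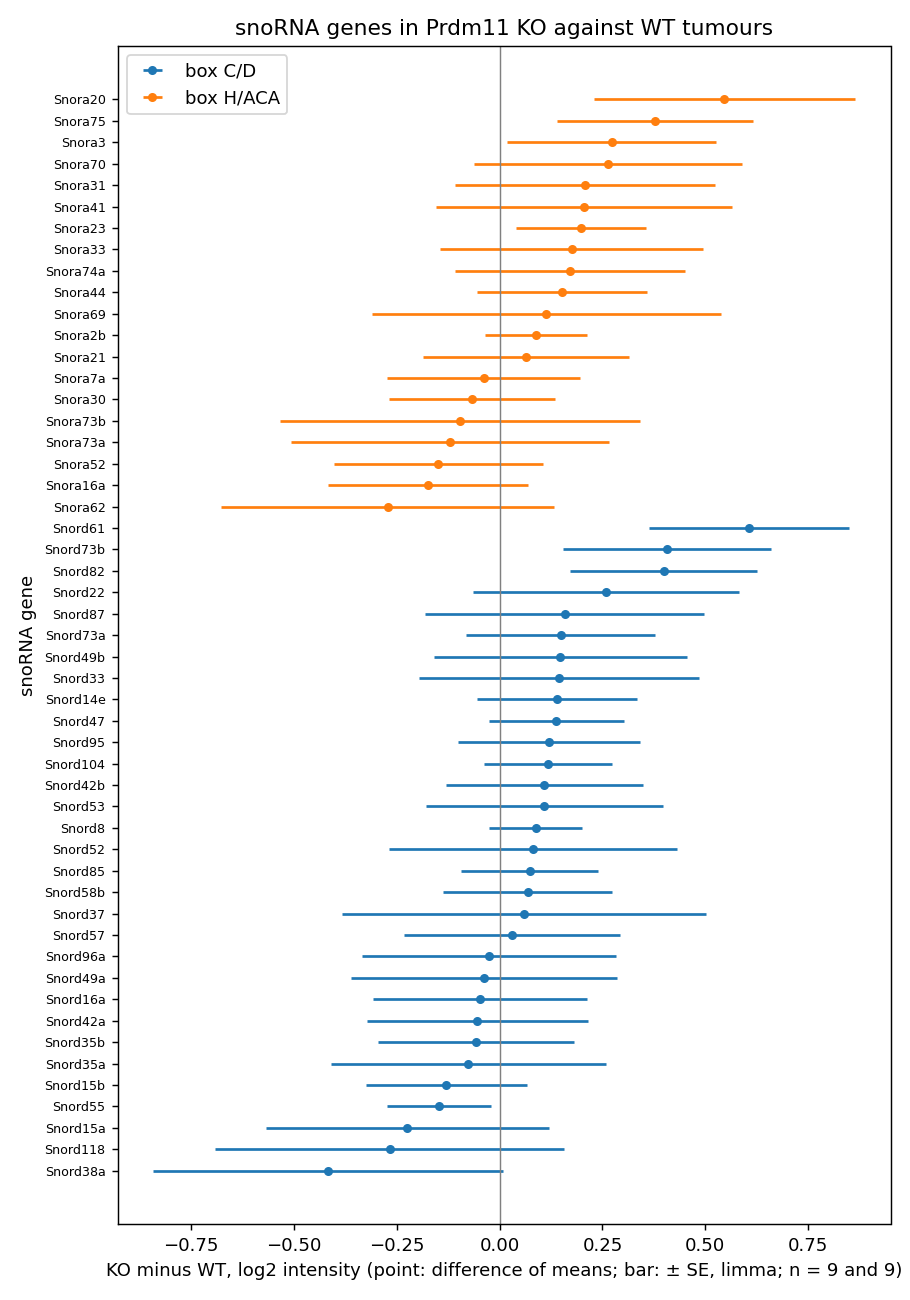
Difference in log2 intensity between KO and WT tumours (9 each) for each of the 51 snoRNA genes, sorted within box H/ACA (upper block) and box C/D (lower block). Points are differences of means and bars ± the limma standard error. Snord61 has the largest positive difference (0.61) and Snord38a the most negative (-0.42).

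Snord61 was the gene with an unadjusted p below 0.05. Its level ran from 3.62 to 5.65 (median 4.97) in WT and from 4.93 to 6.04 (median 5.25) in KO tumours. KO tumours were above the WT median in 8 of 9 cases, the 2 highest tumours were KO2 and KO1 and the lowest was WT4, but the ranges overlapped. The difference was 0.61 (SE 0.24, limma adjusted p = 0.699), and 0.46 without WT4. Snora20, in the chaperonin gene Tcp1, ran from 4.08 to 6.51 (median 4.91) in WT and from 4.74 to 6.37 (median 5.87) in KO tumours, a difference of 0.55 (SE 0.32). Snord73b ran from 4.72 to 6.80 (median 5.70) and from 5.54 to 6.79 (median 6.14), a difference of 0.41 (SE 0.25). Snord82 ran from 8.09 to 9.45 (median 8.70) and from 8.58 to 10.42 (median 9.02), a difference of 0.40 (SE 0.23). For each of these 3, 8 of 9 KO tumours were above the WT median and the genotypes overlapped. The highest Snord82 value was that of KO8.

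Of the genes with negative differences, Snord38a had -0.42 (SE 0.42) and Snora62 -0.27 (SE 0.41), each smaller than its error. Without WT3 the Snora62 difference was 0.01. Snora16a, in Snhg12, ran from 4.41 to 6.45 (median 5.34) in WT and from 4.81 to 5.95 (median 5.14) in KO tumours, a difference of -0.17 (SE 0.24). Snord55 had -0.15 (SE 0.13), with 3 of 9 KO tumours above the WT median. The standard error of a snoRNA difference had a median of 0.26, against 0.12 over all genes, so a difference of the same size is less well measured for these genes.

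The protein genes of the pathway had no member past the adjusted threshold of limma either. All 4 box C/D core proteins had positive differences (median 0.21), as did 3 of 4 box H/ACA core proteins (median 0.20), 12 of 14 assembly factors (median 0.13) and 24 of 28 processome proteins (median 0.12), beside 40.8% positive over all genes. At an unadjusted p below 0.05, 5 processome proteins and Gar1, a subunit of box H/ACA particles, had positive differences, beside 2.83% of all genes. The B lineage and erythroid marker means differed between the same tumours by 0.30 and -0.59, and their part in these differences was not tested. Gar1 had a mean of 7.39 ± 0.42 in WT and 7.76 ± 0.23 in KO tumours (SD, n = 9 each), and the difference was 0.38 (SE 0.15, limma adjusted p = 0.699). Fbl had a difference of 0.29 (SE 0.20), Dkc1 0.29 (SE 0.18), Nop56 0.24 (SE 0.19), Nop58 0.18 (SE 0.13), Nhp2 0.12 (SE 0.20) and Nop10 -0.02 (SE 0.14). Of 8 non-coding host genes, 3 had positive and 5 negative differences (median -0.01).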

How the data were processed

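The deposited values were linear array intensities per probe set. The authors made them with RMA, per the submitters' processing notes, and the sources used here give neither its version nor its reference. The array intensities ran from 1.63 to 14996. They were taken to log2 with no pseudocount or filter.

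Of 35556 probe sets, 21789 had 1 symbol in the platform annotation. Each of 19938 genes was represented by its probe set of highest mean. Genotypes were compared with limma 3.58.1 in R 4.3.3 (lmFit and eBayes, 9 against 9, no covariate), with Benjamini-Hochberg adjustment over all genes. Host correlations used 100000 permutations (numpy 2.4.6, with ranks from scipy 1.17.1), adjusted over the pairs. Hosts were to lie on the same strand, but only position could be used. Both tests were tested on simulated data.

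The members and lists were chosen with earlier results of these data known. Named genes were those of largest and smallest SD, smallest p each way, fixed roles, core proteins and extreme host pairs. The sources used here give no scan batches, and the number of arrays limits precision. The values of 1 pair of snoRNA genes that share a host are not reported here.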

Additional observations from a re-analysis of the deposited data

Results flagged for a closer look

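Within the 9 tumours of a genotype, the named genes and the means of both snoRNA classes were searched for a tumour far from the others, and 3 of 82 such groups held 1; chance gives about 1 in 20. Snora23 was highest in KO8 (9.73), with the nearest KO tumour at 9.30. Nop10 was lowest in WT1 (11.39, nearest 11.94), the tumour in which 50 of 51 snoRNA genes were below their mean. Rpl10 was lowest in WT3 (11.19, nearest 12.19), the tumour in which its snoRNA Snora70 was lowest too.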

How the results depend on the processing

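Over 30 other settings 1182 values were recomputed, and 1121 counted as unchanged. A tested value had to keep its sign and side of the threshold, and a count or SD to stay within a set fold. A median or mean difference had to keep its sign and move by less than the SD between tumours. Without WT1, 4 changed sign within the spread between tumours: the medians (-0.03 box C/D, -0.02 box H/ACA) and the mean differences (-0.05 and -0.02). The count of snoRNA genes past the adjusted threshold of limma was 0 in each of the 26 settings in which it was made. The count higher at an unadjusted limma p below 0.05 was 0 among genes above the median gene. That set leaves out Snord61, whose mean was at percentile 40.6 of all genes. The count was 2 with array weights, 2 with the replicate block and 1 to 3 with 1 tumour left out. The correlated host pairs numbered 8 with arrays centred on their medians and 2 to 8 with 1 tumour left out. Snora21 and Rpl23 had r = 0.24 with the probe set of largest variance and 0.028 with the mean of probe sets. With 1 tumour left out the Snora62 difference ran from -0.43 (WT1) to 0.0069 (WT3). The Nop10 difference was 0.011 with array weights and ran from -0.11 to 0.043 with 1 tumour left out. The causes were not tested. Tumours of the same number deviated together with r of -0.23 to 0.49, and 2 of 18 correlated best with their own number. The SE of the box C/D mean difference was 0.20, and 0.15 with the replicate number as a block. For box H/ACA genes it was 0.22, and 0.16 with the block. Whether tumours of the same number share a step of processing was not tested.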

Other observations

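Outside the snoRNA genes, 657 of 19887 genes (3.30%) had r above 0.7 over the 18 tumours with the box C/D mean and 167 had r below -0.7. The highest, chosen after their values were seen, were Thap12 (0.93), Kdsr (0.93), an enzyme of sphingolipid synthesis, Rsl24d1 (0.92), a factor of large ribosomal subunit assembly, Rpp14 (0.92), a subunit of the tRNA-processing ribonuclease P, and Tmem242 (0.92). Thap12, Kdsr, Rsl24d1 and Tmem242 were lowest in WT1 and Rpp14 in KO4. Their differences between KO and WT tumours ran from -0.03 for Rpp14 to 0.14 for Tmem242, each within its SE. With the box H/ACA mean 929 genes had r above 0.7, Tmem242 (0.94) and Kdsr (0.94) among the highest.

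Snora31, in the growth-associated gene Tpt1 and also chosen after its values were seen, was 6.17 in WT3 and between 8.55 and 9.50 in the other tumours. Its level had r = 0.08 with the mean of the other snoRNA genes.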
